A study of Homo sapiens with 6 samples.

Results

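The genes followed here belong to interleukin 6 (IL6) family signalling: the ligands IL6, LIF and IL11, the receptor chains IL6R, IL6ST, LIFR and OSMR, the kinase JAK1, the transcription factor STAT3 and the inhibitor SOCS3. They were taken by gene name, 10 of the 33542 genes in the table of counts, and were chosen by their place in the pathway with their counts after siTRAIP and siNC in view. All 10 passed the filter on low counts that left 18685 genes for testing. The cells were T24, a line from a human urinary bladder carcinoma, transfected with Lipofectamine. Cells given the small interfering RNA directed at TRAIP (siTRAIP) made up 3 libraries, and cells given the control RNA (siNC) another 3. The column labels read siTR2 for all 3 siTRAIP libraries, and no other RNA directed at TRAIP is named. Effects of TRAIP loss and effects of that RNA on other transcripts therefore cannot be told apart. TRAIP encodes a ubiquitin ligase with a RING domain that acts in the removal of replication machinery from DNA. The sequences of both small interfering RNAs, and whether replicates were separate cultures, are not stated in the labels, so p-values below measure only the spread between libraries, which may be technical.

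Cytokines of the IL6 family signal through receptor complexes that share the chain gp130, encoded by IL6ST. IL6 and IL11 first bind a chain of their own (IL6R for IL6), whereas LIF joins LIFR to gp130, and oncostatin M joins OSMR or LIFR to it. The assembled receptor activates Janus kinases such as JAK1, these phosphorylate the transcription factor STAT3, and STAT3 induces SOCS3, which shuts the receptor down again. Tumour cells of epithelial origin often make IL6 and LIF themselves.

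The targeted transcript had 12.5, 14.7 and 11.6 CPM (counts divided by the size of their library, with sizes taken over the genes tested and scaled by the trimmed mean of M-values, TMM) in siTRAIP replicates 1 to 3, against 26.6, 28.3 and 28.4 CPM in siNC replicates 1 to 3. TRAIP fell to 0.465 of its siNC level (log2 fold change -1.11, SE 0.07, edgeR adjusted p = 6.74e-10). Totals of gene counts lay between 39111793 and 70439496 per siTRAIP library and between 54818483 and 58066330 per siNC library. Replicate 3 of siTRAIP, the deepest library, stood apart within its group: over genes, the chi-square per degree of freedom was 15.8 and 16.4 where it was compared, and 3.20 between the other siTRAIP libraries, while siNC pairs gave 4.30 to 7.32. Of markers listed for other cell types, 4 of 6 leukocyte genes and 4 of 5 endothelial genes were among the genes counted. The leukocyte genes summed to 0.0527 to 0.176 CPM in siTRAIP and 0.0523 to 0.134 CPM in siNC. The endothelial genes summed to 0.0440 to 0.211 CPM in siTRAIP and 0.0349 to 0.0670 CPM in siNC. All 33542 genes counted had a read in at least 1 library, so a gene without reads in all 6 would not be listed. Whether the unlisted markers are missing for that reason cannot be told. The 4 fibroblast markers summed to 1.08 to 5.18 CPM in siTRAIP and 1.30 to 1.39 CPM in siNC, the highest sum being that of siTRAIP replicate 3, where the collagen gene COL1A1 had 4.26 CPM against 1.03 and 0.923 CPM in the other siTRAIP libraries. The 9 urothelial or epithelial markers summed to 3190 to 3484 CPM in siTRAIP and 3496 to 3557 CPM in siNC. Of the 7 tested, only the keratin gene KRT7 was called, beside 12.8% of all genes tested. KRT7 fell (1152 ± 44.2 against 1308 ± 7.30 CPM, SD, n = 3 each; edgeR adjusted p = 0.00375). Uncalled log2 fold changes were negative for KRT8 (-0.08), KRT19 (-0.002) and UPK2 (-0.20, SE 0.27). They were positive for KRT18 (0.05), PPARG (0.04) and GATA3 (0.67, SE 0.54). Basal KRT5 and the uroplakin UPK3A were below 0.1 CPM in each library.

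The contrast of siTRAIP with siNC was known when these 10 genes were put together, so their fold changes are given as a description, without a test. Of the 10, 1 (IL6R) was called higher and 2 (IL6 and LIF) lower at an edgeR adjusted p under 0.05, beside 12.8% of all genes tested (7.47% rose, 5.34% fell), and nothing is read from that count. In 5 of the 10 the libraries of the groups did not overlap (2 higher, 3 lower), beside 29.1% of all genes tested (14.8% higher, 14.4% lower). Log2 fold changes ran from -0.39 (IL6) to 0.93 (IL6R), with a median of -0.09 against -0.0017 over all genes tested.

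The stretches upstream of the start sites of IL6 and IL6R are shown because these genes had the lowest and the highest log2 fold change of the set. They are RefSeq windows (GRCh38.p14), plus strand, reduced to the bases that lie in no exon of the deposited annotation: IL6 at chr7:22726950-22727146 and IL6R at chr1:154405093-154405192. Capitals mark a match to a narrow kB pattern, GGG then any 2 bases then TTTCC, a form of the element that NF-kB proteins bind.
IL6 upstream: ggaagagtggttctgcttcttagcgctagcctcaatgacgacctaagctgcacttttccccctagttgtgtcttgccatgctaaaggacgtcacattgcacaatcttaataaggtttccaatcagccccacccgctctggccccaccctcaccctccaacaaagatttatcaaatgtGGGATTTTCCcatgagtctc
IL6R upstream: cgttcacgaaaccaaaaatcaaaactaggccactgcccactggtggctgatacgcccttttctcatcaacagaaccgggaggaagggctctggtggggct
The IL6 match began 73 bases before the RefSeq start site, which lies 1316 bases inside the deposited gene's start, and among 35116 windows of 250 bases 1.73% held that pattern on either strand. It was chosen with the IL6 match known. A looser pattern that overlaps it, GGG then any 5 bases then CC, matched 54.4% of windows, those of IL6 and IL6R included. The pattern TTCNNNGAA, bound by STAT proteins, was in 6.57% of windows and TGANTCA, bound by AP-1, also in 6.57%. TGACGTCA, the cyclic AMP response element, was in 1.65%. Of the 9 genes of the set with a window (LIF had none), LIFR held the STAT pattern and IL11 the AP-1 pattern. For LIFR this was the window, of 3, nearest to its deposited start, and its RefSeq start site lies 12949 bases inside that start. A match describes letters and shows no binding.

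Among the ligands, IL6 and LIF were lower after siTRAIP. IL6, the inflammatory cytokine that names the family (chromosome 7, 22725884 to 22732002, plus strand, GRCh38, 5 exon blocks), had 8.93, 8.66 and 9.02 CPM in siTRAIP replicates 1 to 3, against 10.5, 12.1 and 12.2 CPM in siNC replicates 1 to 3. Every siTRAIP library lay below every siNC library, and the spread was wider in siNC, where replicate 1 was the lowest. Means were 8.87 ± 0.188 CPM in siTRAIP and 11.6 ± 0.948 CPM in siNC (SD, n = 3 each), a log2 fold change of -0.39 (SE 0.08).

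An opposite-strand gene, AC073072.5, covers 20.7% of the exonic bases of IL6. The library kit was a stranded one, but how counting treated strand is not given in the sources used here, so reads from the shared bases cannot be assigned to 1 strand. AC073072.5 itself had 1.82 ± 0.122 CPM in siTRAIP and 2.29 ± 0.0919 CPM in siNC (SD, n = 3 each), a log2 fold change of -0.32 (SE 0.15) that did not pass the test (edgeR adjusted p = 0.186).

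LIF, leukaemia inhibitory factor (chromosome 22, 30240447 to 30246851, minus strand, 3 exon blocks), was the most abundant transcript of the set per gene length. It stood at 79.7, 79.5 and 79.6 CPM in siTRAIP replicates 1 to 3, against 99.4, 96.2 and 101.2 CPM in siNC replicates 1 to 3. The siTRAIP libraries were almost identical and all lay below the siNC libraries. The log2 fold change was -0.31 (SE 0.04), or 0.805 of the siNC level, and 8.23% of all genes tested had a log2 fold change this low or lower. An opposite-strand gene, RP1-102K2.8, overlaps LIF, of whose exonic bases 6.73% are shared with other genes. That neighbour fell as well, to 28.9 ± 1.19 CPM in siTRAIP against 38.1 ± 0.948 CPM in siNC (SD, n = 3 each, log2 fold change -0.40, SE 0.05, edgeR adjusted p = 9.47e-06). As the handling of strand is not given, reads from the shared bases cannot be assigned to LIF or to RP1-102K2.8. Its fall may therefore not be separate from that of LIF.

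IL11, a stromal and bone-active cytokine of the same family (chromosome 19, 55364389 to 55370463, minus strand, no shared exonic bases), had the lowest counts of the set, with 95, 111 and 201 counts in siTRAIP replicates 1 to 3 and 181, 156 and 193 counts in siNC replicates 1 to 3. Scaled to depth these were 2.50, 2.44 and 2.92 CPM in siTRAIP, against 3.16, 2.82 and 3.23 CPM in siNC. The groups overlapped through siTRAIP replicate 3. The log2 fold change of IL11 was -0.22 (SE 0.13), and -0.31 (SE 0.15) without siTRAIP replicate 3.

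**Figure D1:**
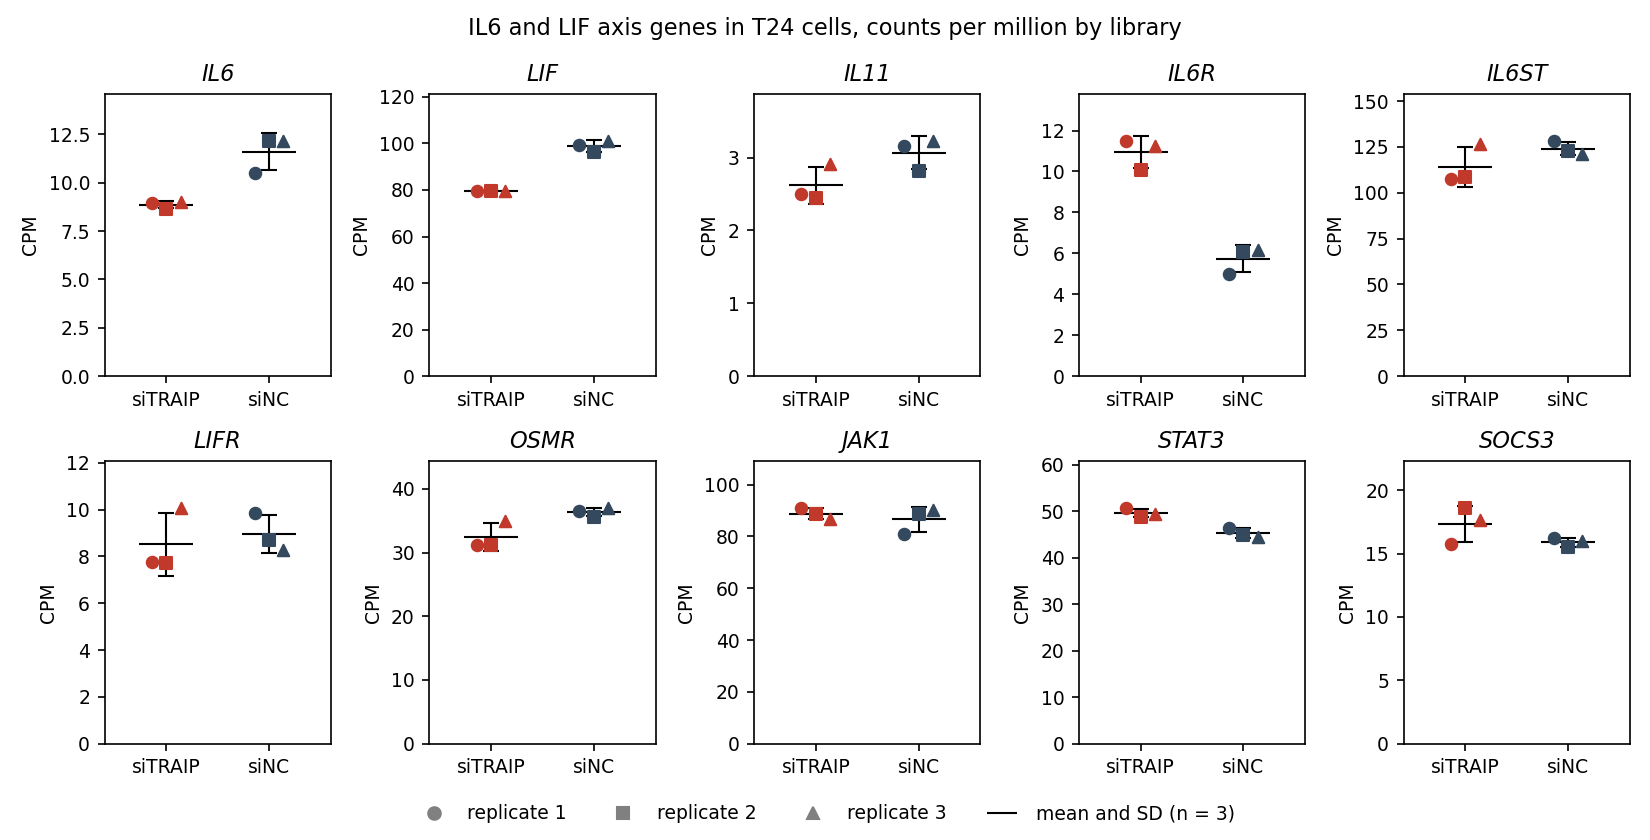
CPM (axes from 0) of the 10 genes in each library, siTRAIP left and siNC right in every panel; marker shapes give the replicate number, bars the mean and SD of 3 libraries. IL6R sits between 10.1 and 11.5 CPM in siTRAIP and between 5.00 and 6.16 CPM in siNC, and IL6 and LIF are lower in every siTRAIP library. In IL6, IL11, IL6ST, LIFR and OSMR siTRAIP replicate 3 is the highest siTRAIP library.

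Of the receptor chains, IL6R was higher after siTRAIP, OSMR was slightly lower, and IL6ST and LIFR overlapped between groups. Log2 fold changes were 0.93 for IL6R and -0.16 for OSMR, beside a median absolute value of 0.12 over all genes tested. IL6R encodes the ligand-binding chain for IL6, which in most tissues is restricted to a few cell types (chromosome 1, 154405193 to 154469450, plus strand, 12 exon blocks, no shared exonic bases). Its counts were 437, 458 and 776 in siTRAIP replicates 1 to 3, against 287, 336 and 368 in siNC replicates 1 to 3. As CPM these were 11.5, 10.1 and 11.3 in siTRAIP, against 5.00, 6.07 and 6.16 in siNC, so every siTRAIP library lay above every siNC library. The log2 fold change of 0.93 (SE 0.09) is a 1.90-fold difference, and 114 of the 18685 genes tested had a log2 fold change as high or higher. It stayed between 0.84 and 0.98 with any 1 library left out. The pseudogene IL6RP1 held 2 counts in all 6 libraries together.

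IL6ST, the shared signal-transducing chain gp130 (chromosome 5, 55935095 to 55994993, minus strand, 19 exon blocks), had 107.2, 108.4 and 126.5 CPM in siTRAIP replicates 1 to 3, against 128.4, 122.6 and 121.3 CPM in siNC replicates 1 to 3. Replicates 1 and 2 of siTRAIP lay below all siNC libraries, and replicate 3 lay among them. The log2 fold change of IL6ST was -0.12 (SE 0.05), and it depended on that library: -0.20 (SE 0.04) without siTRAIP replicate 3, -0.08 (SE 0.06) without siTRAIP replicate 1. An opposite-strand gene of 797 bases, CTD-2031P19.5, covers 8.58% of the 9292 exonic bases of IL6ST and so lies wholly within them. It had 12.0 ± 0.844 CPM in siTRAIP and 13.4 ± 1.06 CPM in siNC (SD, n = 3 each; edgeR adjusted p = 0.209). As the handling of strand is not given, these values cannot be told apart from reads of IL6ST.

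OSMR, the oncostatin M receptor chain (chromosome 5, 38845858 to 38945596, plus strand), showed 31.2, 31.2 and 34.9 CPM in siTRAIP replicates 1 to 3, against 36.5, 35.6 and 37.0 CPM in siNC replicates 1 to 3. Its groups did not overlap, although siTRAIP replicate 3 came within 1 CPM of the lowest siNC library. Its log2 fold change was -0.16 (SE 0.05) with all libraries and -0.22 (SE 0.05) without siTRAIP replicate 3. The opposite-strand gene RICTOR covers 3.19% of the OSMR exonic bases and had a log2 fold change of -0.004 (SE 0.06).

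LIFR, the receptor chain for LIF (chromosome 5, 38474963 to 38608354, minus strand, with 5.30% of exonic bases shared with LIFR-AS1), had 7.74, 7.74 and 10.1 CPM in siTRAIP replicates 1 to 3, against 9.85, 8.69 and 8.29 CPM in siNC replicates 1 to 3. Here siTRAIP replicate 3 was the highest of all 6 libraries and the other siTRAIP libraries the lowest. The log2 fold change of LIFR had no stable sign: -0.06 (SE 0.10) with all libraries, -0.21 (SE 0.10) without siTRAIP replicate 3, 0.006 without siTRAIP replicate 1, 0.01 without siTRAIP replicate 2, 0.02 without siNC replicate 1 and -0.12 with library totals only.

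Replicate 3 of siTRAIP lay furthest above the other siTRAIP libraries in LIFR, IL11, IL6ST and OSMR. Its log2 CPM minus the mean of siTRAIP replicates 1 and 2 was 0.38 for LIFR, 0.24 for IL11, 0.23 for IL6ST and 0.16 for OSMR, and between -0.05 (JAK1) and 0.06 (IL6R) for the rest. Over 18653 genes 8.03% deviated as far upward as LIFR, and 21.4% as far as OSMR, so these deviations were not extreme for that library. COL1A1 moved with them in the same library, at the 4.26 CPM given above; its part in these values was not tested.

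**Figure D2:**
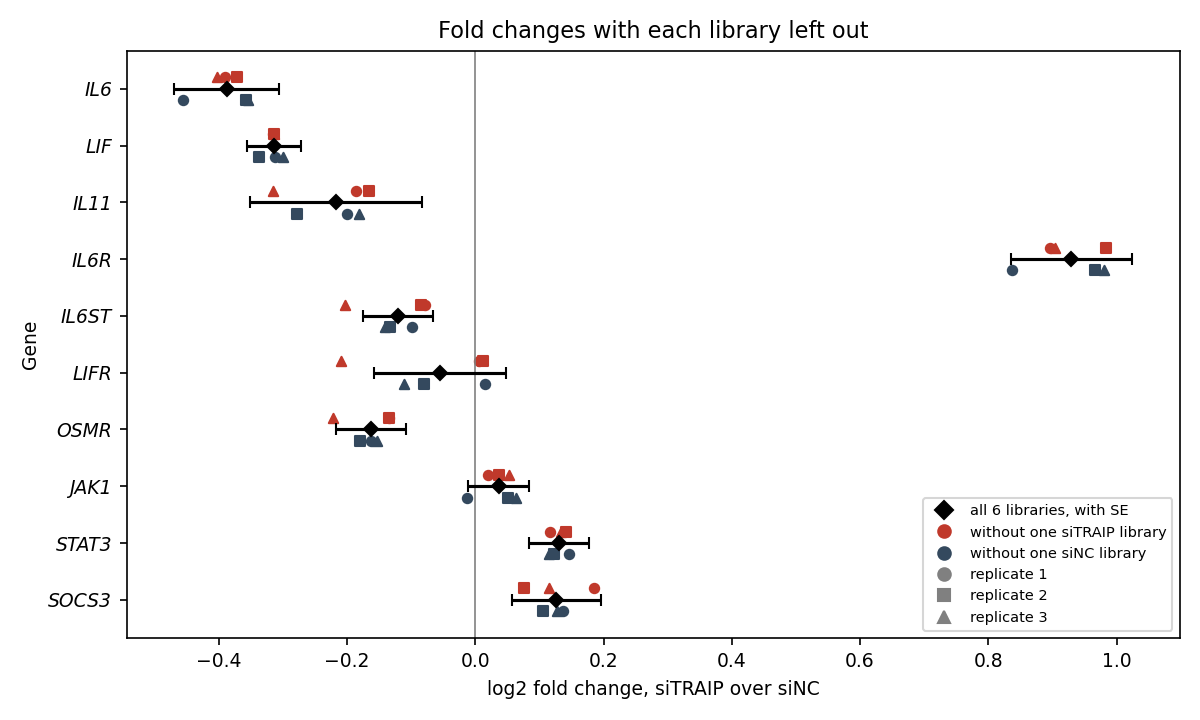
Log2 fold change of siTRAIP over siNC for each gene (horizontal axis; black diamonds, all 6 libraries, with the SE) and with 1 library left out (red, a siTRAIP library; dark blue, a siNC library; shapes give the replicate). The red triangles of IL6ST, LIFR and OSMR at -0.20, -0.21 and -0.22 are the values without siTRAIP replicate 3, while IL6R stays at 0.84 or above throughout.

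Ratios taken within a library need no scaling between libraries. Per gene length (RPKM, counts divided by gene length and by the summed gene counts), IL6R was 0.155, 0.134 and 0.128 of IL6ST in siTRAIP replicates 1 to 3, against 0.0561, 0.0712 and 0.0732 in siNC replicates 1 to 3. The mRNA of the IL6-binding chain thus stayed well below that of gp130 in both groups, at a ratio of 0.139 ± 0.0139 in siTRAIP and 0.0668 ± 0.00935 in siNC (SD, n = 3 each). The ratio of LIFR to IL6ST overlapped between groups, at 0.0583 ± 0.00354 in siTRAIP and 0.0564 ± 0.00336 in siNC (SD, n = 3 each). So did that of OSMR to IL6ST, at 0.369 ± 0.0102 in siTRAIP and 0.380 ± 0.0136 in siNC (SD, n = 3 each). LIF was 4.68 ± 0.0965 times IL6 in siTRAIP and 4.46 ± 0.413 times IL6 in siNC (SD, n = 3 each), again with overlapping groups.

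Inside the cell, the transcripts of the kinase, the transcription factor and its feedback inhibitor differed little. JAK1, a Janus kinase bound to gp130 (chromosome 1, 64833229 to 64966504, minus strand), had 91.0, 88.7 and 86.9 CPM in siTRAIP replicates 1 to 3, against 80.9, 88.7 and 90.2 CPM in siNC replicates 1 to 3. The groups overlapped and the log2 fold change of 0.04 (SE 0.05) changed sign, to -0.02 with scaling by library totals only and to -0.01 without siNC replicate 1. STAT3, the main transcription factor of the pathway (chromosome 17, 42313324 to 42388568, minus strand), had 50.7, 48.9 and 49.3 CPM in siTRAIP replicates 1 to 3, against 46.5, 45.0 and 44.5 CPM in siNC replicates 1 to 3. Its siTRAIP libraries all lay above its siNC libraries, with a log2 fold change of 0.13 (SE 0.05) that was 0.07 (SE 0.05) with scaling by library totals only. SOCS3, the feedback inhibitor induced by STAT3 (chromosome 17, 78356778 to 78360077, minus strand), had 15.8, 18.6 and 17.6 CPM in siTRAIP replicates 1 to 3, against 16.2, 15.5 and 16.0 CPM in siNC replicates 1 to 3. Replicate 1 of siTRAIP fell inside the siNC range. The log2 fold change of SOCS3 was 0.13 (SE 0.07), with 0.08 (SE 0.07) without siTRAIP replicate 2. SOCS3 was at 0.07 with library totals only, and at 0.06 and 0.05 with limma on log2(RPKM + 0.1) and log2(RPKM + 1). Per gene length SOCS3 was 1.13 ± 0.114 of STAT3 in siTRAIP and 1.13 ± 0.0253 in siNC (SD, n = 3 each). Counts of mRNA measure neither the phosphorylation of STAT3 nor secreted cytokine, and in bulk RNA fewer cells expressing a gene and less RNA per cell cannot be told apart.

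Compared per gene length, the set spanned a wide range of levels. In siTRAIP the RPKM order was LIF (19.6 ± 0.131), JAK1 (13.8 ± 0.273), IL6ST (12.0 ± 1.15), SOCS3 (6.21 ± 0.562), STAT3 (5.51 ± 0.0623), OSMR (4.42 ± 0.294), IL6 (4.20 ± 0.0689), IL6R (1.66 ± 0.105), IL11 (0.960 ± 0.0942) and LIFR (0.703 ± 0.111; SD, n = 3 each). Of the neighbours in that order OSMR and IL6 overlapped between libraries, and the other 8 pairs did not. In siNC it was LIF (25.4 ± 0.880), JAK1 (13.99 ± 0.798), IL6ST (13.6 ± 0.445), SOCS3 (5.94 ± 0.181), IL6 (5.73 ± 0.459), STAT3 (5.25 ± 0.129), OSMR (5.17 ± 0.144), IL11 (1.17 ± 0.0948), IL6R (0.909 ± 0.101) and LIFR (0.769 ± 0.0705; SD, n = 3 each). JAK1 and IL6ST could not be ordered there, nor could neighbours in the run from SOCS3 to OSMR, nor IL6R and LIFR. LIF led the set in every library, and its receptor chain LIFR came last in every siTRAIP library. IL6R stood above IL11 in every siTRAIP library and below IL11 in every siNC library.

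**Figure D3:**
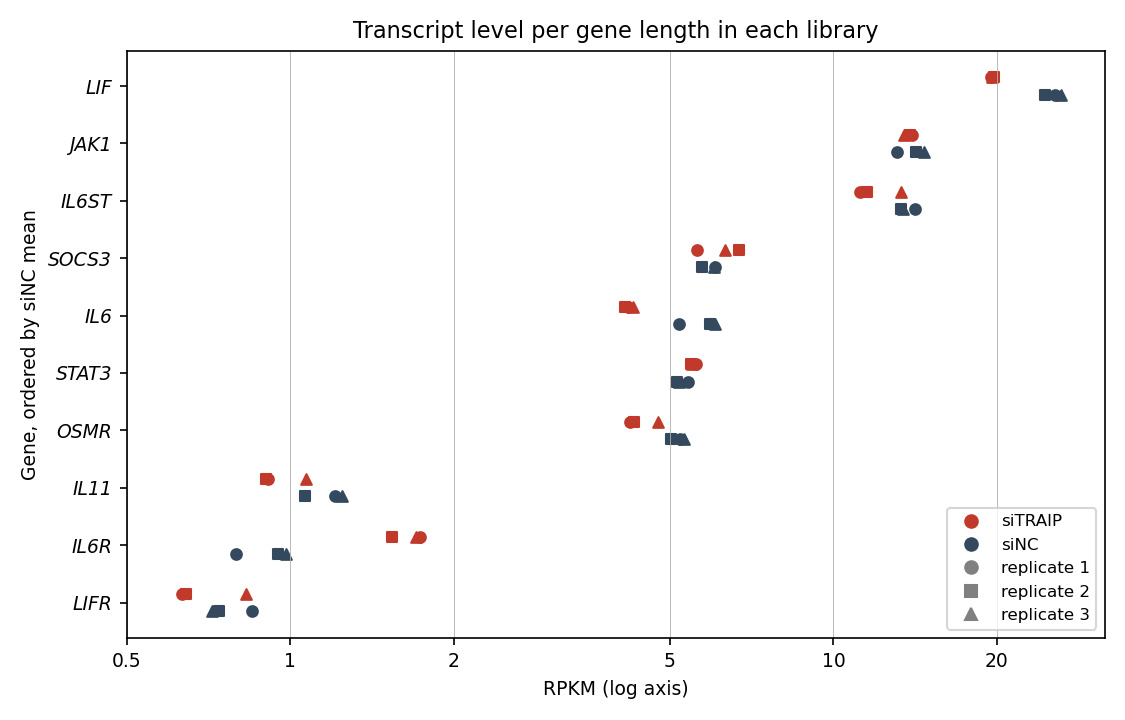
RPKM of each gene in each library on a log axis, genes ordered by their siNC mean; red is siTRAIP, dark blue siNC, and shapes give the replicate. LIF lies at 19.5 to 19.8 RPKM in siTRAIP and 24.5 to 26.2 RPKM in siNC, and IL6R lies at 1.54 to 1.73 RPKM in siTRAIP and 0.794 to 0.982 RPKM in siNC.

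Genes that followed the pattern of IL6R most closely were sought among 10698 other genes with a mean of at least 5 CPM, by Pearson correlation of log2(CPM + 1) over the 6 libraries. The closest were RP11-513I15.6 (r = 0.999), BICD1 (r = 0.999) and ZNF468 (r = 0.998). For LIF the closest were GPR137 (r = 0.999), NOL4L (r = 0.997) and CDC34 (r = 0.996). Over 6 libraries that fall into 2 groups, 369 of these genes exceeded 0.95 with IL6R and 366 with LIF. Above 0.99 there were 20 with IL6R and 32 with LIF. Their log2 fold changes were 0.29 (SE 0.07) for RP11-513I15.6, 0.19 (SE 0.06) for BICD1 and 0.44 (SE 0.08) for ZNF468, and -0.31 (SE 0.06) for GPR137, -0.35 (SE 0.06) for NOL4L and -0.25 (SE 0.05) for CDC34.

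Around the 10 genes, 7 lists of other genes of the pathway were read from the same fit over all genes. Together they held 69 genes, 58 of them tested, of which 4 rose and 11 fell (25.9%, against 12.8% of all genes tested; median log2 fold change -0.04 against -0.0017). The lists were chosen with earlier results of these data known, so nothing is read from that share. With only genes of at least 1 CPM in 3 libraries kept, 2507 of 14480 genes were called, 15 of them in the lists. Without siTRAIP replicate 1 the calls were 9 (2 rose, 7 fell), and without siNC replicate 2 the calls that rose were 2. Over all genes 2393 were called (1396 rose, 997 fell), and 1480 without siNC replicate 1. Scaled by library totals only, 838 of all genes rose and 2050 fell, and 2 of the pathway genes rose and 15 fell.

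Other ligands and receptor chains were few and mostly did not pass the test. Of 3 tested ligand genes none passed edgeR's adjusted threshold or that of DESeq2, and 1 had an unadjusted p under 0.05. OSM, which encodes oncostatin M, had 1 count in siTRAIP replicate 1 and 0 in the other 5 libraries. Among 3 tested receptor chains 1 rose (33.3%, beside 12.8% of all genes tested). This was IL31RA, which pairs with OSMR to bind interleukin 31. IL31RA had 14.01, 12.99 and 14.2 CPM in siTRAIP replicates 1 to 3, against 10.7, 11.4 and 12.5 CPM in siNC replicates 1 to 3. The difference, 0.25 on the log2 scale (SE 0.08), passed with an edgeR adjusted p of 0.0297. Leaving out 1 library ended this call in 4 cases, with adjusted p of 0.184 and 0.108 (siNC replicates 1 and 2) and 0.0915 and 0.0741 (siTRAIP replicates 1 and 3). The IL31RA call also ended with library totals only (log2 fold change 0.19, adjusted p = 0.0964). In the limma fits on log2(RPKM + 0.1) and log2(RPKM + 1) its adjusted p was 0.185 and 0.19, and the lower log2 fold change was 0.14. IL11RA, the chain that binds IL11, had 2.29 ± 0.380 CPM in siTRAIP and 2.73 ± 0.498 CPM in siNC (SD, n = 3 each; edgeR adjusted p = 0.328). None of the 3 genes of receptor shedding (ADAM10, ADAM17 and RHBDF2) passed with edgeR or DESeq2, and 2 had an unadjusted p under 0.05 (ADAM17 and RHBDF2). ADAM17, a protease that releases soluble IL6R, had 70.6 ± 3.87 CPM in siTRAIP and 77.3 ± 1.73 CPM in siNC (SD, n = 3 each; edgeR adjusted p = 0.0764), with 24.1% of its exonic bases shared with IAH1.

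Of 8 tested genes for other Janus kinases and STAT factors none passed with edgeR or DESeq2, and 1 had an unadjusted p under 0.05. The list had a median log2 fold change of 0.04, and its lowest value was that of STAT5A, -0.13 (SE 0.13), with 2.98 ± 0.339 CPM in siTRAIP and 3.23 ± 0.263 CPM in siNC (SD, n = 3 each; edgeR adjusted p = 0.604).

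Among 15 tested genes of the SOCS, PIAS and phosphatase list 2 fell and 1 rose (20%, beside 12.8% of all genes tested). Nothing is read from that share. SOCS5, a member of the suppressor of cytokine signalling family, had 6.69, 7.41 and 8.24 CPM in siTRAIP replicates 1 to 3, against 10.3, 11.2 and 13.2 CPM in siNC replicates 1 to 3. It had the lowest log2 fold change of any gene in the 7 lists, -0.62 (SE 0.10, edgeR adjusted p = 1.18e-04). PIAS4, a SUMO ligase of the PIAS family, averaged 7.48 ± 1.23 CPM in siTRAIP and 9.90 ± 0.432 CPM in siNC (SD, n = 3 each; log2 fold change -0.40, SE 0.10, edgeR adjusted p = 0.00763). That PIAS4 result missed the threshold when siNC replicate 2 (adjusted p = 0.0504) or siTRAIP replicate 1 (0.0575) was left out, and with both limma fits (0.0649 and 0.0637). PTPN11, which encodes the phosphatase SHP2 that is recruited to gp130 and passes signals to the ERK pathway, rose to 407.7 ± 12.0 CPM in siTRAIP against 342.2 ± 13.7 CPM in siNC (SD, n = 3 each; log2 fold change 0.25, SE 0.04, edgeR adjusted p = 2.36e-04).

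Of 17 tested genes known as STAT3 targets 7 fell and 2 rose (52.9%, beside 12.8% of all genes tested), with a median log2 fold change of -0.11. The list was chosen with earlier results of these data known, so nothing is read from that share. Many of the targets answer to other factors as well. HIF1A, the hypoxia-inducible factor subunit, had 122.0, 118.0 and 123.3 CPM in siTRAIP replicates 1 to 3, against 168.2, 171.0 and 172.2 CPM in siNC replicates 1 to 3 (log2 fold change -0.49, SE 0.04, edgeR adjusted p = 1.13e-08). CCND1, the cyclin D1 gene, fell to 494.6 ± 23.9 CPM in siTRAIP against 683.4 ± 6.18 CPM in siNC (SD, n = 3 each; edgeR adjusted p = 5.14e-08). CEBPB, a transcription factor of the acute-phase response that also acts on IL6, fell to 20.9 ± 1.04 CPM in siTRAIP against 26.1 ± 1.87 CPM in siNC (SD, n = 3 each; edgeR adjusted p = 0.00141). Other genes share 10.3% of the exonic bases of CCND1, 11.8% of those of CEBPB and 5.14% of those of HIF1A. FOS and PIM1 had the highest log2 fold changes of the list, 0.88 (SE 0.49) and 0.53 (SE 0.30), on at most 49 counts a library, and did not pass (edgeR adjusted p = 0.281 and 0.292); both were named after their values were seen.

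The other 4 falls, MCL1, JUNB, ICAM1 and SBNO2, were named after their values were seen and had log2 fold changes from -0.46 (JUNB) to -0.18 (ICAM1). Other genes share 23.6% of the exonic bases of ICAM1 and 14.2% of those of JUNB. Threshold losses came for JUNB without siNC replicate 3 (adjusted p = 0.0688) or siTRAIP replicate 1 (0.0711), for ICAM1 without siNC replicate 1 (0.0698), 2 (0.0549) or 3 (0.0516), and for SBNO2 without siNC replicate 1 (0.0609) or 3 (0.115) or siTRAIP replicate 1 (0.0827) or 3 (0.0616) and with both limma fits (0.059 and 0.0621). Against the majority, BIRC5 (survivin) and BCL2L1 (BCL-XL), which counter cell death, rose, while MCL1, named above among the falls, also counters cell death. BIRC5 reached 138.2 ± 4.56 CPM in siTRAIP against 115.1 ± 2.21 CPM in siNC (SD, n = 3 each; log2 fold change 0.26, SE 0.04, edgeR adjusted p = 1.25e-04). BCL2L1 had 76.8 ± 2.40 CPM in siTRAIP and 68.0 ± 2.69 CPM in siNC (SD, n = 3 each; edgeR adjusted p = 0.0124), with 43.0% of its exonic bases shared with the opposite-strand gene ABALON, and did not pass when siNC replicate 2 (adjusted p = 0.114) or siTRAIP replicate 1 (0.0717) was left out. Nor did BCL2L1 pass with library totals only (log2 fold change 0.115, adjusted p = 0.104) or with the same limma fits (0.116 and 0.112, adjusted p = 0.16 and 0.159).

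Of 9 genes that act on IL6 transcription or mRNA stability 2 fell and none rose (22.2%, beside 12.8% of all genes tested). Nothing is read from that share. RELA, the NF-kB subunit p65, had 107.2, 111.7 and 114.0 CPM in siTRAIP replicates 1 to 3, against 128.4, 123.1 and 133.7 CPM in siNC replicates 1 to 3, with no overlap (log2 fold change -0.21, SE 0.04, edgeR adjusted p = 0.00223). RC3H2, a roquin protein that promotes decay of inflammatory mRNAs, had 87.6 ± 3.27 CPM in siTRAIP and 99.2 ± 3.00 CPM in siNC (SD, n = 3 each; edgeR adjusted p = 0.00865). It missed the threshold when siNC replicate 2 (adjusted p = 0.0623) or siTRAIP replicate 1 (0.0506) was left out. ZC3H12A, the ribonuclease Regnase-1 that degrades IL6 mRNA, had 4.21 ± 0.462 CPM in siTRAIP and 4.46 ± 0.386 CPM in siNC (SD, n = 3 each; edgeR adjusted p = 0.725).

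**Figure D4:**
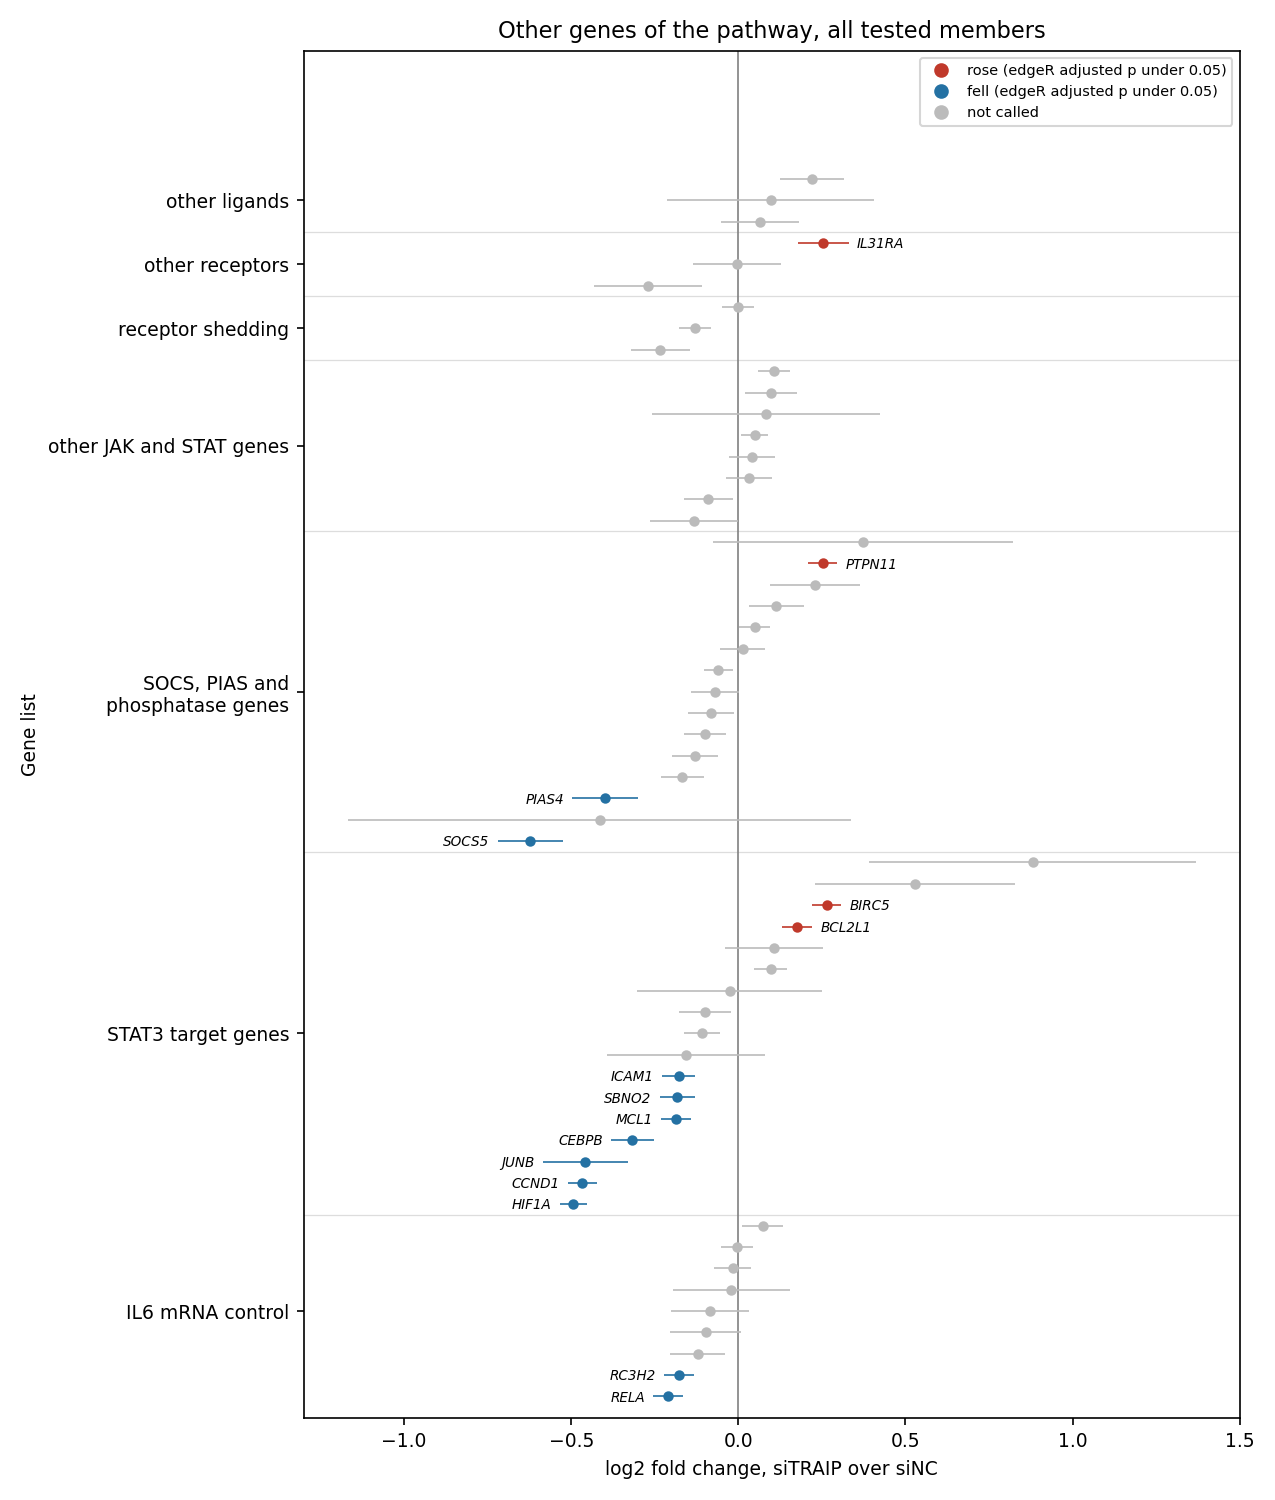
Log2 fold change of siTRAIP over siNC with its SE (horizontal axis) for each tested gene of the 7 lists of other pathway genes (rows); red rose and blue fell at an edgeR adjusted p under 0.05, grey was not called. The 15 called genes are labelled, from SOCS5 at -0.62 to BIRC5 at 0.26, and 9 of them are in the list of STAT3 targets. Over all genes tested 12.8% were called, and the lists were chosen with earlier results of these data known.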

How the data were processed

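Counts deposited by the authors are whole numbers without normalization. The deposited RPKM values could be recomputed from those counts, gene lengths and column sums to a relative difference of at most 1.25e-06. Per the submitters' processing notes, Trimmomatic 0.36, featureCounts of Subread 1.5.1 and build GRCh38 were used; for the aligner, annotation release and strand setting, nothing is given in the sources used here. Groups and replicate numbers came from the sample titles.

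Counts were tested with edgeR 4.0.16 (R 4.3.3): filterByExpr, TMM factors, a robust quasi-likelihood fit and a 2-sided F-test of siTRAIP against siNC, Benjamini-Hochberg adjusted over 18685 genes at 0.05; the SE is the log2 fold change divided by the square root of F. The common biological coefficient of variation was 5.73%. The fit was also run on simulated counts that had the common dispersion for every gene and no outlying library. That run therefore does not measure how reliable the calls in these data are. Shared exonic bases were taken from the deposited exon coordinates and promoter windows from RefSeq. Alternatives used DESeq2 1.42.0, limma 3.58.1 on log2 RPKM, other size factors and filters, a replicate block, and each library left out. Even numbers made up 70.2% of counts of 1 to 10 and 50.8% of those from 1001 up, so halved counts were added after seeing the data.

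The 10 genes and the lists were chosen with earlier results of these data known. In each list, up to 4 called genes with the smallest adjusted p, and those moving against the majority, are named; for IL6R and LIF, the 3 genes with the most similar pattern. Some tested genes of the lists are counted but not reported here by name.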

Additional observations from a re-analysis of the deposited data

How the results depend on the processing

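Of the 10 genes, IL6R, IL6, LIF, IL6ST, OSMR, IL11, STAT3 and SOCS3 kept the sign of their log2 fold change in all 17 alternatives, and JAK1 and LIFR did not (4 and 3 sign changes). TRAIP passed in all 17 (-1.21 to -0.99). With 1 library left out, log2 fold changes ran from 0.84 to 0.98 for IL6R, -0.46 to -0.35 for IL6, -0.34 to -0.30 for LIF, -0.31 to -0.17 for IL11, -0.20 to -0.08 for IL6ST, -0.22 to -0.13 for OSMR, -0.21 to 0.02 for LIFR, -0.01 to 0.06 for JAK1, 0.11 to 0.15 for STAT3 and 0.08 to 0.18 for SOCS3. Genes called ran from 1480 to 2622 (878 to 1471 rose, 602 to 1151 fell), and other pathway genes called from 9 to 15 (2 to 4 rose, 7 to 12 fell).

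With limma on log2(RPKM + 0.1) and log2(RPKM + 1), by construction smaller for low genes, IL6R was 0.81 and 0.48. LIF was -0.37 and -0.36, STAT3 0.0698 and 0.0599, and 1521 and 1517 genes were called (454 and 450 rose), with 2 pathway rises each. RPKM values are scaled by library totals without TMM factors, and in these fits the median of all genes was -0.058 and -0.0322. With library totals only, which sets the median of all genes at -0.06, LIF was -0.37 and STAT3 0.0705, 838 genes rose and 2050 fell, and pathway rises were 2. For the differences between these scales in counts called, the cause was not tested.

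The labels do not say that equal replicate numbers mark pairs. Deviations of same-numbered libraries from their group means correlated at 0.03, -0.09 and -0.01. With the number as a replicate block, IL6R was 0.93, IL6 -0.39, LIF -0.31 and TRAIP -1.11, and no call on a named pathway gene changed. Depth limits IL11, LIFR and IL6R most: the lowest count of the set was 95.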
